A study of Mus musculus with 6 samples.

Results

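The genes described here encode the sensors that detect RNA and DNA in the cytosol, together with the adaptors and enzymes that work beside them. They are *Ddx58* (RIG-I), *Ifih1* (MDA5), *Dhx58* (LGP2), *Ddx60*, *Mavs*, *Tmem173* (STING), *Zbp1*, *Eif2ak2* (PKR), *Adar* (ADAR1) and *Trex1*, and they were taken by gene symbol. Of these 10 genes, 9 have a value among the 22248 genes listed, and no value for *Trex1* was analysed here. Of the 9 genes, 7 rose at least 2-fold in resting macrophages that lacked CITED2, *Tmem173* rose by a small amount, and *Mavs*, the adaptor on which the RNA receptors converge, was slightly lower, a call that did not hold when the libraries were rescaled.

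RNA was measured in 6 libraries of bone-marrow-derived macrophages (BMDMs), cells grown from mouse bone marrow in medium with macrophage colony-stimulating factor, without further stimulus. The 3 control libraries came from *Lyz2*cre mice. For the 3 CITED2-deficient libraries the donors were *Cited2* fl/fl:*Lyz2*cre mice, and all mice were C57BL/6. The labels give postnatal week 10 for both groups, while the methods name a younger age. CITED2 is a transcriptional regulator that binds CBP and p300. Both genotypes carry 1 *Lyz2* Cre allele, so the controls also express the recombinase, and the groups differ in the floxed *Cited2* alleles. Cre is made from the *Lyz2* locus, which is active in myeloid cells. The labels do not say whether the 3 libraries of a group came from separate mice, so the p-values measure the spread between these samples, which may be technical.

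Cells treat long double-stranded RNA, RNA with a 5′ triphosphate and DNA in the cytosol as signs of infection. RIG-I and MDA5 signal through MAVS on mitochondria, whereas cyclic GMP-AMP made by cGAS signals through STING on the endoplasmic reticulum, and both routes lead to the kinase TBK1, the factors IRF3 and IRF7, and type I interferon. Interferon acts back on the cell through factors that include STAT2 and IRF9, and many of the sensor genes are known to be induced by it. PKR halts translation and ZBP1 can start necroptosis, while ADAR1 and TREX1 remove RNA structures or DNA of the cell itself that would otherwise set off these sensors.

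The promoters of the sensor genes were searched for the core repeat of the interferon-stimulated response element (GAAA and, after 2 bases of any kind, GAAA again) on both strands of a window from 250 bases before to 50 bases after the RefSeq start (GRCm38.p6). A window was held for 7 of the 10 genes, and *Dhx58*, *Tmem173* and *Zbp1* had none. The repeat occurred in 4 of the 7 genes, and in 1131 of 32851 windows (3.44%) and 1079 of 27025 genes (3.99%) over the genome. The stretches with a match are shown because they belong to 4 of the genes that rose, read 5′ to 3′ on the strand of the gene with the match in capitals. Their positions are chr2:62646206-62646233 on the minus strand for *Ifih1*, chr4:40239804-40239833 on the minus strand for *Ddx58*, chr8:61928027-61928086 on the plus strand for *Ddx60* and chr17:78882535-78882564 on the minus strand for *Eif2ak2*.
*Ifih1*: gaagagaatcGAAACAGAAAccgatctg
*Ddx58*: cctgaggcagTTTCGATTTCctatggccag
*Ddx60*: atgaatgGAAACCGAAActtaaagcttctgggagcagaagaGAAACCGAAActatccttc
*Eif2ak2*: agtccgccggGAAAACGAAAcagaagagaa
*Ddx60* held 2 matches, at -53 to -44 and at -19 to -10 from the start, and the others held 1 each. The match lay at 33 to 42 bases in *Ifih1*, at 19 to 28 bases in *Eif2ak2*, and at 3 to 12 bases on the opposite strand in *Ddx58*. The letters were not found in the windows of *Mavs*, *Adar* or *Trex1*. The letters TTCNNNGAA, the core of a gamma-activated site, read the same on both strands. They were found in 2 of the 7 genes, *Eif2ak2* and *Adar*, and in 8.30% of all windows and 9.55% of all genes. For *Adar* the match lay in the window at chr3:89730468-89730767 and not in its other windows. A match is a description of the letters and does not show that a factor binds there.

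*Cited2* itself fell from an FPKM (fragments per kilobase of transcript, scaled to the depth of the library) of 71.7, 79.3 and 75.5 in control libraries to 9.27, 7.22 and 7.53 in CITED2-deficient libraries, a log2 fold change of -3.09 (limma, adjusted p = 6.57e-09). The depth recovered from the steps of the FPKM values was 17289286 to 18952078 fragments in control libraries and 22583995 to 26100409 in CITED2-deficient libraries, 1.34 times as deep on average. Each sensor value rests on 310 to 6698 fragments, for which the counting error alone is at most 5.68%. The test, limma on log2(FPKM + 1) with the Benjamini-Hochberg adjustment and an adjusted p threshold of 0.05, covered the 11687 genes whose FPKM averaged 1 or more. Every log2 fold change is on this scale, CITED2-deficient over control, and understates the change of low genes. All 9 sensor genes with a value passed this filter, and each had a mean of at least 8.98 in both groups.

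RIG-I, encoded by *Ddx58* (ENSMUSG00000040296, chromosome 4, 40203773 to 40239828 in mm10), recognizes short double-stranded RNA with a 5′ triphosphate. The control libraries, in the order of replicates 1 to 3 used throughout, had an FPKM of 46.6, 41.3 and 49.4, and the CITED2-deficient libraries had 146, 157 and 159. The lowest CITED2-deficient library was thus 2.95 times the highest control library, and the groups did not overlap. The means were 45.7 ± 4.15 and 154 ± 7.13 (SD, n = 3 each), a 3.37-fold increase (log2 fold change 1.73, standard error 0.06, adjusted p = 5.12e-08).

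MDA5, encoded by *Ifih1* (ENSMUSG00000026896, chromosome 2, 62595798 to 62646255), forms filaments along long double-stranded RNA. *Ifih1* was the lowest of the RIG-I-like receptor genes, with an FPKM of 17.0, 15.7 and 16.6 in control libraries and 53.2, 59.8 and 57.0 in CITED2-deficient libraries. Both groups were tight and apart from each other. The mean rose 3.45-fold, from 16.4 ± 0.64 to 56.7 ± 3.32 (SD, n = 3 each). The log2 fold change was 1.72 with a standard error of 0.05 (adjusted p = 1.81e-08).

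LGP2, encoded by *Dhx58* (ENSMUSG00000017830, chromosome 11, 100694884 to 100704271), lacks the signalling domains of the other receptors and modulates their response. By FPKM *Dhx58* was the highest of all the sensor genes in either genotype. It also had the shortest mean transcript length among those with a value, 982 bases against 1615 for *Ddx58*. In fragments, *Dhx58* (938, 889 and 994 in control libraries) lay below *Ddx58* (1421, 1152 and 1513), so its rank depends on the lengths used. The FPKM of *Dhx58* was 50.5, 52.4 and 53.4 in control libraries and 169, 188 and 192 in CITED2-deficient libraries, with no overlap. This was a 3.51-fold increase (log2 fold change 1.79, standard error 0.05, adjusted p = 8.89e-09). *Dhx58os*, an antisense gene that overlaps *Dhx58* on the other strand, held 6, 4 and 6 fragments in control libraries and 38, 28 and 46 in CITED2-deficient libraries. The libraries were stranded, but no source used here names the strand setting of the counting, so the reads of this antisense gene and those of *Dhx58* may not be separate.

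DDX60, a helicase described as a cofactor of the RNA receptors, is encoded on chromosome 8 (*Ddx60*, ENSMUSG00000037921, 61928087 to 62038244). *Ddx60* was the lowest sensor gene in control libraries, at an FPKM of 9.13, 8.76 and 9.05, and reached 30.7, 38.4 and 34.2 in CITED2-deficient libraries. The CITED2-deficient libraries spread more (coefficient of variation 11.2%) than the control libraries (2.18%) but remained apart from them. The increase was 3.83-fold (log2 fold change 1.82, standard error 0.08, adjusted p = 1.19e-07).

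**Figure D1:**
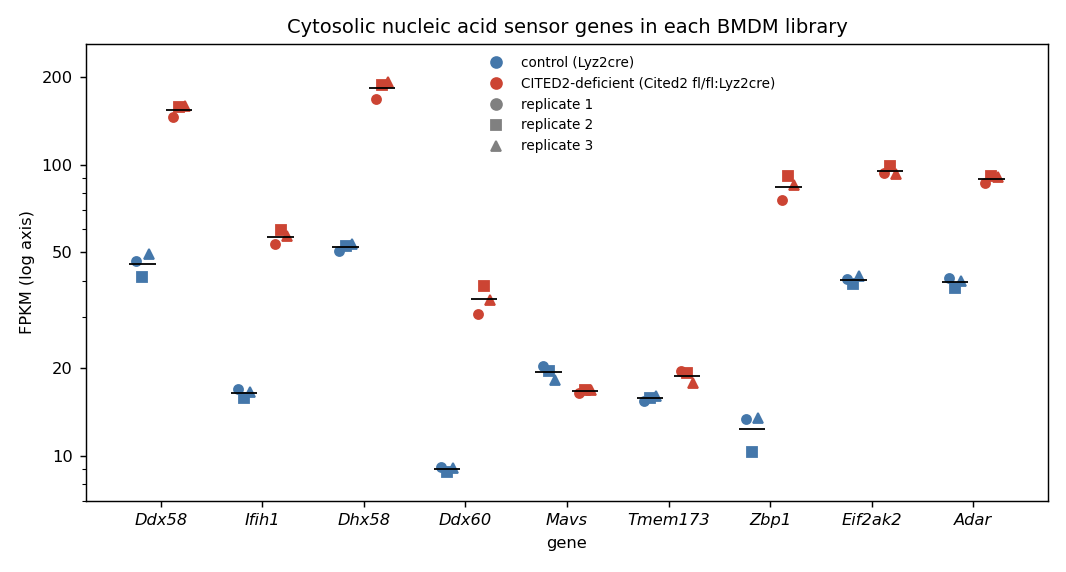
FPKM (y axis, log scale) of the 9 sensor genes (x axis) in each of the 3 control (blue) and 3 CITED2-deficient (red) BMDM libraries. Symbols mark replicates and black lines the mean of a group, and for 7 genes the red points lie at least 2.13 times above the highest blue point, while for *Mavs* and *Tmem173* the groups lie close together.

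The adaptors did not follow the receptors. MAVS, encoded by *Mavs* (ENSMUSG00000037523, chromosome 2, 131234063 to 131248025), relays the signal of RIG-I and MDA5. Its FPKM was 20.3, 19.5 and 18.2 in control libraries and 16.4, 16.8 and 16.9 in CITED2-deficient libraries, so every CITED2-deficient library lay below every control library by a small margin. The mean fell from 19.4 ± 1.04 to 16.7 ± 0.23 (SD, n = 3 each), 0.862 of the control level (log2 fold change -0.20, standard error 0.05, adjusted p = 0.0122). Over all 11687 tested genes the median change was -0.10 on the same scale. The call for *Mavs* was lost when libraries were rescaled, with -0.13 after quantile normalization (adjusted p = 0.0871) and -0.11 after median-ratio scaling (adjusted p = 0.134).

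STING, encoded by *Tmem173* (ENSMUSG00000024349), binds the cyclic dinucleotide made in response to cytosolic DNA. Its FPKM was 15.4, 15.7 and 16.0 in control libraries and 19.6, 19.2 and 17.7 in CITED2-deficient libraries. The groups did not overlap, although the lowest CITED2-deficient value was only 1.11 times the highest control value. The mean was 1.20 times the control mean (log2 fold change 0.24, standard error 0.05, adjusted p = 0.00487), and its change was the smallest of the 8 sensor genes that rose. The FPKM of *Tmem173* did not come out as whole fragments with the annotation used here, unlike those of the other 8 genes, so its fragment numbers are approximate.

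ZBP1, encoded by *Zbp1* (ENSMUSG00000027514, chromosome 2, 173206612 to 173218923), binds left-handed double-stranded nucleic acid and recruits RIPK3. *Zbp1* changed more than any other sensor gene. Its FPKM was 13.4, 10.3 and 13.4 in control libraries and 75.4, 91.5 and 85.4 in CITED2-deficient libraries. Even the lowest CITED2-deficient library was 5.62 times the highest control library. The mean rose 6.81-fold (log2 fold change 2.68, standard error 0.10, adjusted p = 6.45e-08), the 38th largest rise among the 11687 tested genes.

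PKR, encoded by *Eif2ak2* (ENSMUSG00000024079, chromosome 17, 78852564 to 78882573), is a kinase that is switched on by double-stranded RNA and phosphorylates the translation factor eIF2α. Its FPKM was 40.4, 39.0 and 41.5 in control libraries and 93.3, 99.0 and 92.7 in CITED2-deficient libraries, without overlap. The mean rose 2.36-fold (log2 fold change 1.22, standard error 0.04, adjusted p = 2.74e-08). On the opposite strand, the ribosomal RNA gene *n-R5s29* lies within *Eif2ak2*, with 1, 1 and 1 fragments in control libraries and 9, 12 and 7 in CITED2-deficient libraries. The noncoding gene *Gm26637* overlaps the start of *Eif2ak2* from the other strand, with an FPKM of 1.23, 1.44 and 1.66 in control libraries and 2.44, 1.99 and 2.63 in CITED2-deficient libraries (log2 fold change 0.46, adjusted p = 0.0165).

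ADAR1, encoded by *Adar* (ENSMUSG00000027951, chromosome 3, 89715022 to 89753446), converts adenosine to inosine in double-stranded RNA. Its FPKM was 40.8, 37.7 and 40.0 in control libraries and 86.7, 91.2 and 90.4 in CITED2-deficient libraries, again without overlap. The mean rose 2.26-fold (log2 fold change 1.16, standard error 0.04, adjusted p = 3.95e-08), close to the increase of *Eif2ak2*. The values do not separate the transcript forms of *Adar*. *Chrnb2*, which overlaps *Adar* on the other strand, was below the filter with at most 91 fragments in a library.

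*Trex1* encodes the main cytosolic DNA exonuclease, and its span lies within that of *Atrip* (chromosome 9, 109057933 to 109074124) on the same strand. *Atrip* had an FPKM of 6.44, 6.82 and 6.24 in control libraries and 7.23, 7.10 and 7.44 in CITED2-deficient libraries (log2 fold change 0.14, adjusted p = 0.124). These values do not stand in for *Trex1*.

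Of the 9 sensor genes tested, 8 (88.9%) passed the threshold as higher in CITED2-deficient BMDMs, where 16.7% of all tested genes did. A single gene, *Mavs*, passed as lower, against 34.6% of all tested genes. An increase of at least 2-fold was reached by 7 of the 9 genes (77.8%), compared with 3.72% of all tested genes. All 8 genes that rose had groups that did not overlap, as did 19.0% of all tested genes in that direction, and the groups of *Mavs* did not overlap downwards, as in 40.9% of tested genes. The median log2 fold change was 1.72 over the 9 sensor genes and -0.10 over all tested genes. The 7 genes with the large increases ranked between 38 and 337 of 11687 by size of rise, whereas *Tmem173* ranked at 1726.

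**Figure D2:**
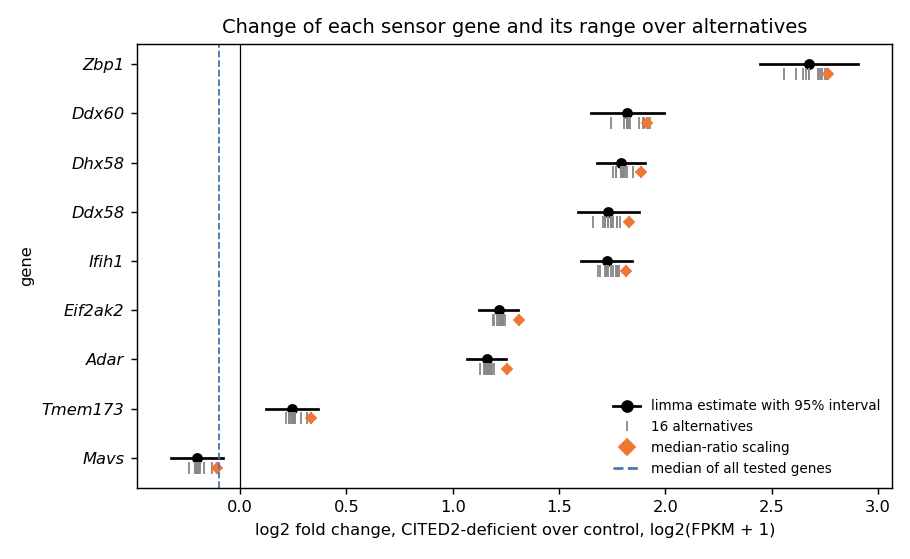
Log2 fold change of each sensor gene, CITED2-deficient over control on the log2(FPKM + 1) scale (x axis), with the limma estimate and its 95% interval in black. Grey ticks show the 16 alternative settings, with median-ratio scaling as an orange diamond, and the dashed line marks the median of all tested genes at -0.10. For 8 genes all ticks stay above 0, and for *Mavs* they run from -0.24 to -0.11.

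FPKM is divided by transcript length, so levels can be set side by side between genes, within the accuracy of the mean transcript length used for each gene. In control BMDMs the order of mean FPKM was *Dhx58* (52.1), *Ddx58* (45.7), *Eif2ak2* (40.3), *Adar* (39.5), *Mavs* (19.4), *Ifih1* (16.4), *Tmem173* (15.7), *Zbp1* (12.4) and *Ddx60* (8.98). The ranges of *Ddx58* and *Eif2ak2*, of *Eif2ak2* and *Adar*, and of *Ifih1* and *Tmem173* overlapped, so the order within these pairs of neighbours is not settled. Between any of the genes, the order in either genotype also depends on the lengths used. In CITED2-deficient BMDMs the order became *Dhx58* (183), *Ddx58* (154), *Eif2ak2* (95.0), *Adar* (89.5), *Zbp1* (84.1), *Ifih1* (56.7), *Ddx60* (34.4), *Tmem173* (18.8) and *Mavs* (16.7), and only the ranges of *Adar* and *Zbp1* overlapped. By FPKM *Mavs* had thus moved from above *Ifih1*, *Zbp1* and *Ddx60* to the lowest place, and *Zbp1* from near the bottom to the level of *Adar*. The summed FPKM of the 9 genes was 254, 240.4 and 258 in control libraries and 690.0, 761 and 745 in CITED2-deficient libraries. Control replicate 2 had the lowest value of its group for 6 of the 9 genes, and CITED2-deficient replicate 1 for 7 of the 9.

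Ratios between genes within a library do not depend on the scaling between libraries. For 11 pairs, chosen after their values had been seen, the ratio was compared between groups with an exact two-sided permutation test, which cannot fall below 0.1 with 3 against 3 libraries, so no pair could pass 0.05. Over the 11 pairs that smallest value became an adjusted p of 0.157. An exact p of 0.1 is reached only where the groups do not overlap, so the p-value and the separation are the same result. For the receptors and their adaptor the gap was wide. *Ddx58* over *Mavs* was 2.29, 2.11 and 2.71 in control libraries and 8.88, 9.37 and 9.43 in CITED2-deficient libraries (3.91-fold higher, exact p = 0.1). *Ifih1* over *Mavs* was 0.837, 0.806 and 0.910 in control libraries, where the adaptor had the higher FPKM, and 3.24, 3.56 and 3.38 in CITED2-deficient libraries, where the receptor did (exact p = 0.1). Control libraries held 963, 816 and 943 fragments of *Ifih1* and 937, 825 and 844 of *Mavs*. Which gene was higher there thus depends on the lengths used, while the change of the ratio does not. *Tmem173* over *Mavs* was 0.761, 0.805 and 0.880 in control libraries and 1.19, 1.14 and 1.05 in CITED2-deficient libraries (exact p = 0.1). *Tmem173* thus had the lower FPKM of the adaptor genes in the former and the higher in the latter, which also depends on the lengths used.

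Among themselves the 3 RIG-I-like receptor genes held similar proportions in both genotypes. Of their summed FPKM, *Ddx58* took 40.0% ± 1.97 in control and 39.2% ± 0.44 in CITED2-deficient libraries, *Ifih1* took 14.4% ± 0.50 and 14.4% ± 0.40, and *Dhx58* took 45.6% ± 1.96 and 46.4% ± 0.58 (SD, n = 3 each). The ratio of *Ifih1* to *Ddx58* was 0.361 ± 0.02 and 0.368 ± 0.01 (exact p = 0.9), and that of *Dhx58* to *Ddx58* was 1.15 ± 0.11 and 1.19 ± 0.03 (exact p = 0.4). By FPKM, which depends on the lengths used, *Eif2ak2* and *Adar* were near equal in both groups, with a ratio of 1.02 ± 0.03 and 1.06 ± 0.03 (exact p = 0.3). Such p-values do not show that the proportions are equal, and the groups of these 3 ratios overlapped. *Zbp1* over *Ddx58* was 0.287, 0.250 and 0.272 in control and 0.517, 0.582 and 0.538 in CITED2-deficient libraries, 2.03 times the control ratio (exact p = 0.1). *Adar* over *Ifih1* was 2.40, 2.40 and 2.41 in control libraries and 1.63, 1.52 and 1.59 in CITED2-deficient libraries, 0.658 of the control ratio for the RNA editing enzyme relative to MDA5 (exact p = 0.1).

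**Figure D3:**
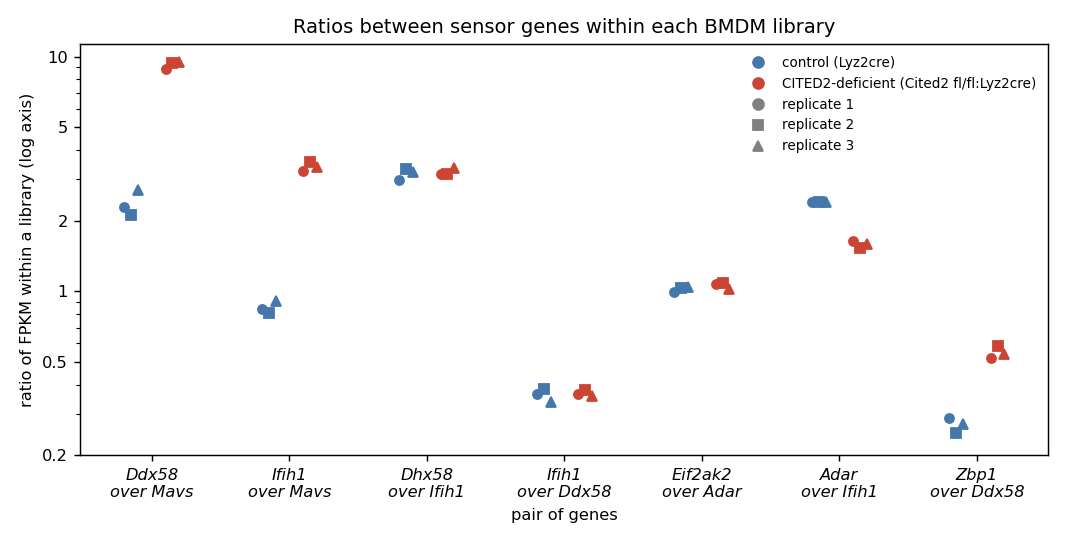
Ratio of FPKM between pairs of sensor genes within each library (y axis, log scale) for 7 of the pairs (x axis), with control libraries in blue, CITED2-deficient libraries in red and a symbol for each replicate. The ratios of *Ddx58* and *Ifih1* to *Mavs* are 3.91 and 3.99 times higher in CITED2-deficient libraries, while *Ifih1* over *Ddx58*, *Dhx58* over *Ifih1* and *Eif2ak2* over *Adar* overlap between the groups.

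Other genes of the same pathways were taken from 8 lists of 88 genes in all, of which 83 had a value and 79 passed the filter. Of these 79 genes, 24 (30.4%) were higher and 29 (36.7%) lower in CITED2-deficient BMDMs, beside 16.7% and 34.6% of all tested genes, and 26 did not pass the threshold. After median-ratio scaling the split was 28 higher and 16 lower. Their median log2 fold change was -0.08, and 5 genes (6.33%) rose at least 2-fold. Increases of at least 2-fold were thus found in 7 of 9 sensor genes and in 5 of 79 of these other genes.

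Among cofactors and regulators of the RIG-I-like receptors, 3 of 11 tested genes rose and 5 fell. *Trim25*, a ubiquitin ligase that assists RIG-I, rose from an FPKM of 91.5, 84.4 and 88.0 to 143, 148 and 147 (log2 fold change 0.73, adjusted p = 4.52e-07). *Zc3hav1*, which encodes the zinc finger antiviral protein, rose by 0.64, and *Rnf135*, a ligase that acts on RIG-I, by 0.25 on the log2 scale. The helicase gene *Ddx3x* (log2 fold change -0.52), *Prkra*, which encodes the PKR activator PACT (-0.51), and *Trim65*, a ligase for MDA5 (-0.42), fell. Each of these 6 genes kept its call after both rescalings.

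Of 12 tested genes for DNA sensing and cGAMP handling, 3 rose and 4 fell. *Aim2*, the DNA sensor of an inflammasome, was 35.9, 29.8 and 27.0 in control libraries and 53.7, 57.1 and 54.2 in CITED2-deficient libraries (log2 fold change 0.82, adjusted p = 5.76e-05). *Cgas*, which makes the ligand of STING, was low in all libraries, at 3.71, 3.47 and 4.46 in control libraries and 7.31, 6.73 and 7.64 in CITED2-deficient libraries (log2 fold change 0.76, adjusted p = 0.000203). *Trim56* rose by 0.28 on the log2 scale. *Enpp1*, the enzyme that breaks down extracellular cGAMP (log2 fold change -0.51), *Hmgb1* (-0.49) and *Rnf5* (-0.26), a ligase that acts on STING and MAVS, fell. *Rnf5* lost its call after median-ratio scaling (-0.17, adjusted p = 0.0803).

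Downstream of MAVS and STING, 5 of 12 tested genes rose and 4 fell. *Irf7*, the factor that drives the later wave of interferon transcription, had by far the largest change of any listed gene, with an FPKM of 74.2, 66.4 and 80.4 in control libraries and 775, 839 and 835 in CITED2-deficient libraries (log2 fold change 3.46, adjusted p = 8.88e-10). *Irf3*, the factor that is present before stimulation, went the other way, from 49.6, 52.6 and 55.5 to 41.8, 39.3 and 38.3 (log2 fold change -0.39, adjusted p = 0.000239). The scaffold genes *Tank* and *Traf3* rose by 0.51 and 0.40 on the log2 scale, while *Ikbke* (log2 fold change -0.30) and *Ikbkg* (-0.25) fell. *Tbk1*, named after its values had been seen because its kinase serves both routes, was 108, 108 and 106 in control libraries and 110.0, 105 and 107 in CITED2-deficient libraries (log2 fold change 0.003, adjusted p = 0.939).

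Nucleases and RNA decay factors that limit the cell's own nucleic acid gave 3 higher and 5 lower genes of 11 tested. *Samhd1*, a dNTP hydrolase, was already abundant, at 292, 283 and 291, and reached 498, 565 and 535 (log2 fold change 0.88, adjusted p = 3.81e-07). *Ttc37*, a subunit of the cytosolic RNA decay complex, and *Pld3*, an endolysosomal exonuclease, rose by 0.22 and 0.12 on the log2 scale. Subunits of ribonuclease H2, *Rnaseh2b* (log2 fold change -0.51) and *Rnaseh2c* (-0.39), fell, as did *Lsm11* (-0.30), a histone RNA processing factor whose call did not hold after either rescaling.

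In the PKR arm, 4 of 12 tested genes rose and 4 fell. *Ddit3*, which encodes the stress factor CHOP, was 27.4, 25.7 and 28.4 in control libraries and 61.0, 64.9 and 58.7 in CITED2-deficient libraries (log2 fold change 1.15, adjusted p = 2.03e-07). *Atf4*, which encodes the factor translated when eIF2α is phosphorylated, rose by 0.48, and *Ppp1r15b*, a subunit of the phosphatase that acts on eIF2α, by 0.32 on the log2 scale. *Eif2ak3*, the eIF2α kinase PERK of the endoplasmic reticulum, fell (log2 fold change -0.39), and so did the double-stranded RNA binding gene *Stau1* (-0.24).

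Of 8 tested partners of ZBP1 in cell death, 2 rose and 2 fell. *Mlkl*, the pore-forming executor of necroptosis, was 7.30, 8.95 and 8.12 in control libraries and 20.7, 24.1 and 25.3 in CITED2-deficient libraries (log2 fold change 1.42, adjusted p = 2.13e-06). *Cflar*, an inhibitor of caspase-8, rose by 0.60 on the log2 scale. *Casp6* fell (log2 fold change -0.56), and *Ripk1* fell by 0.16 on the log2 scale, with no call after median-ratio scaling (-0.07, adjusted p = 0.181). Of other double-stranded RNA binding genes, 5 were tested, with 0 higher and 2 lower, beside 16.7% and 34.6% of all tested genes. The editing relatives of ADAR1 in this list were not among those tested. *Strbp* (log2 fold change -0.63) and *Dicer1* (-0.19) fell, and *Dicer1* lost its call after both rescalings.

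Of type I interferon genes, the receptor and the factors that answer it, 4 of 8 tested genes rose and 3 fell. The transcription factor genes *Stat2* (60.4, 56.6 and 60.9 against 244, 268 and 259.8, log2 fold change 2.10, adjusted p = 1.45e-09) and *Irf9* (log2 fold change 0.67), which act together in the response to interferon, rose. The receptor genes *Ifnar2* (log2 fold change -0.30) and *Ifnar1* (-0.27) fell, as did *Jak1* (-0.11), which lost its call after median-ratio scaling. *Ifnb1*, named after its values had been seen, was below the filter, with 0 fragments in each control library and 5, 2 and 5 fragments in CITED2-deficient libraries. Sums of 0 and 12 fragments allow no more than the statement that interferon beta transcript was detected in all 3 libraries of the CITED2-deficient group, and that up to 3 fragments in the control group would have been compatible with a count of 0.

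**Figure D4:**
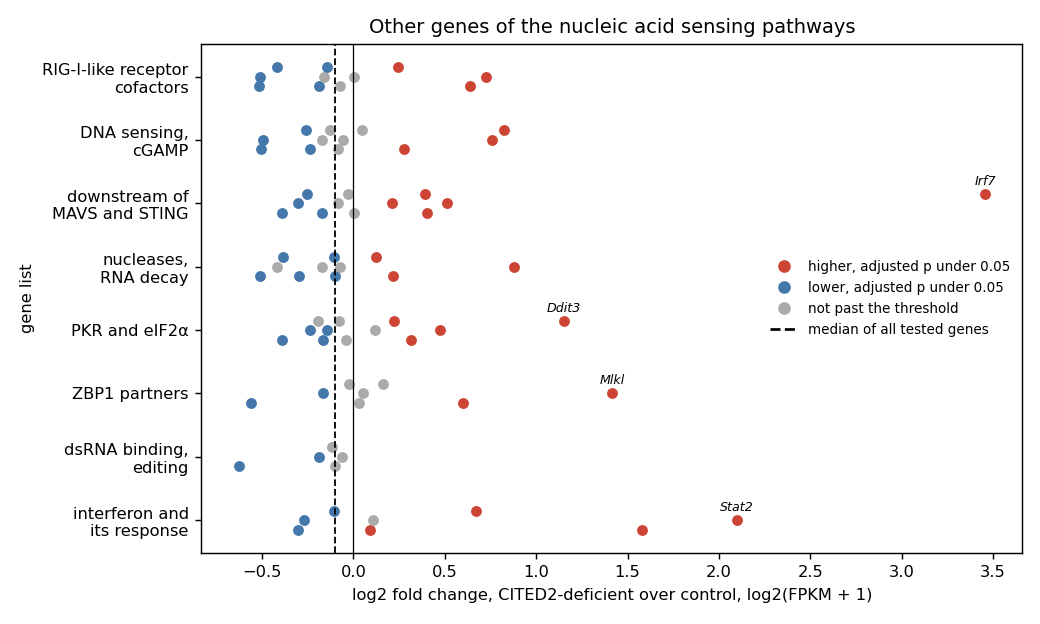
Log2 fold change on the log2(FPKM + 1) scale, CITED2-deficient over control (x axis), of the 79 tested genes in 8 lists of the sensing pathways (y axis). Red points passed the threshold as higher (24), blue points as lower (29) and grey points did not pass (26), and 5 points lie above 1, with the highest point of each list that reaches 1 named (*Irf7*, *Stat2*, *Mlkl* and *Ddit3*).

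The nearest profile to each of the 7 strongly raised sensor genes was sought among all other tested genes, by the Euclidean distance between centred log2(FPKM + 1) values over the 6 libraries, which share their groups and depth. *Dck* was the nearest gene to both *Ifih1* (distance 0.0776) and *Ddx58* (0.119). *Znfx1* was the nearest to *Dhx58* (0.111), *C4b* to *Ddx60* (0.0811), *Phf11d* to *Zbp1* (0.242), *Fbxw17* to *Eif2ak2* (0.0754) and *Tlr3* to *Adar* (0.0352). *Tlr3*, which encodes the endosomal receptor for double-stranded RNA, was 6.96, 6.15 and 6.61 in control libraries and 15.4, 16.1 and 16.1 in CITED2-deficient libraries, a log2 fold change of 1.16 like that of *Adar*. The distance combines the size of the change with the spread within groups.

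The cultures carried the macrophage markers *Adgre1*, *Csf1r* and *Cd68* at high levels in all libraries. The summed FPKM of 8 macrophage markers was 5624 to 5694 in control and 5287 to 5367 in CITED2-deficient libraries, with 1 marker higher and 5 lower. *Fcgr1* was higher (log2 fold change 1.48). The markers *Adgre1* (-0.32), *Csf1r* (-0.31), *Mertk* (-0.26), *Itgam* (-0.81) and *Lyz2* (-1.59) were lower. Among them *Lyz2*, the locus that carries Cre, was 30.8, 30.6 and 32.5 in control libraries and 9.39, 9.82 and 10.0 in CITED2-deficient libraries. Of 8 fibroblast markers, 7 passed the filter and all 7 were higher, with a summed FPKM of 44.7 to 53.6 in control and 176 to 552 in CITED2-deficient libraries, the highest in CITED2-deficient replicate 1. Endothelial markers summed to 6.09 to 6.38 and 27.5 to 32.7, with 2 of 3 tested markers higher, chiefly *Kdr*. Without CITED2-deficient replicate 1 the fibroblast sum of the CITED2-deficient group was 176 to 178, still above that of the control group. In that setting 8 sensor genes were called higher. Leaving out a library that shares its high sum with the others does not test the part of these cells. The part of fibroblast and endothelial cells in the result was not tested. Plasmacytoid dendritic cell markers summed to 355 to 366 and 866 to 975, carried by *Bst2*, while the defining *Siglech* was at or below 0.245 in every library. Of 7 tested markers of neutrophils and their precursors, 5 were lower and 1 was higher in CITED2-deficient libraries, and their part in the result was not tested either. The granule genes of precursors *Mpo* (log2 fold change -2.54) and *Elane* (-2.08) fell most, *Camp* fell by 0.99 on the log2 scale, and *Ltf* rose by 0.90, while the sum of the list was 727 to 795 in control and 658 to 777 in CITED2-deficient libraries. Of 3 tested osteoclast markers, 1 was higher and 1 lower, with sums of 54.4 to 56.8 and 66.2 to 72.0. Conventional dendritic, T or NK, B and erythroid cell markers summed to at most 3.29 in any library. The conventional dendritic sum was 0.703 to 1.05 in control and 2.12 to 2.18 in CITED2-deficient libraries. For erythroid markers it was 0.376 to 1.34 and 0.204 to 0.282, and the T or NK and B cell sums overlapped between the groups. In bulk RNA, fewer cells that express a gene and less RNA per cell cannot be told apart.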

How the data were processed

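Total RNA from BMDMs was depleted of ribosomal RNA and made into stranded libraries. The authors aligned reads to mm10 using STAR, and the deposited FPKM per gene and library come from Cuffdiff with the GENCODE annotation. Replicates were not pooled, and versions of the tools are not given in these sources. As FPKM are scaled to library size, strongly changed genes can shift the rest. Fragment numbers were recovered with mean transcript lengths of GENCODE vM21, which gave values within 0.02 of whole in all 6 libraries for 21366 of 22239 matched genes (96.1%). Fragment intervals cover counting error only.

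Genes averaging an FPKM of 1 or more (11687) were tested as log2(FPKM + 1) with limma 3.58.1 (R 4.3.3), a variance trend and Benjamini-Hochberg adjustment, 3 against 3 libraries. The steps were tested on simulated data in which equally many genes rose and fell. That test does not cover effects of scaling between libraries. The sensor genes and all lists were chosen with earlier results of these data known. Genes named are the sensor genes, *Cited2*, up to 3 rises and 3 falls past the threshold in each pathway list, overlapping genes, and the nearest profile of each sensor gene with an absolute log2 fold change of at least 1, apart from *Tbk1*, *Ifnb1* and the cell type markers. Results for a few listed genes were left out. Alternatives were pseudocounts of 0.1 and 0.5, no filter or a mean of at least 5, quantile and median-ratio scaling, no trend, array weights, a replicate block, limma-voom on recovered fragments, each library left out, and a fold change of at least 2.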

Additional observations from a re-analysis of the deposited data

How the results depend on the processing

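The calls of the 8 raised sensor genes held under all 16 alternative settings other than the fold threshold. The adjusted limma p was at most 0.0199 for *Tmem173* (log2 fold changes of 0.22 to 0.34) and 2.03e-05 for the other 7. With a fold change of at least 2 also required, 7 sensor genes were higher. The fall of *Mavs* held under 14 of the same 16 settings. The number of sensor genes lower was 1, and 0 after quantile normalization, after median-ratio scaling and with a fold change of at least 2. Of pathway genes, 24 were higher and 29 lower, with 16 lower (28 higher) after median-ratio scaling, and 5 higher and 0 lower with a fold change of at least 2. Of all genes, 1950 were higher and 4044 lower, with 2576 lower (2624 higher) after median-ratio scaling, and 435 higher and 180 lower with a fold change of at least 2. The cause of the difference between scalings was not tested. Among the pathway genes named here, *Dicer1*, *Lsm11*, *Jak1*, *Ripk1* and *Rnf5* lost their call under 1 or more settings and none reversed. The labels give samples of the 2 groups only a replicate number in common, so whether same-numbered libraries were prepared together is not known. Deviations of same-numbered libraries correlated at 0.01, 0.008 and 0.04, which cannot settle this with 3 libraries per group. In limma with a replicate block, 8 sensor genes were higher and 1 lower (*Mavs* adjusted p = 0.0258), with 23 pathway genes higher and 25 lower. Values of low genes such as *Ifnb1* are limited by depth.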
